A study of Bos taurus with 2 samples.

Results

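The genes described here are the core of the transforming growth factor beta (TGF-beta) pathway: the ligands TGFB1, TGFB2 and TGFB3, the receptors TGFBR1, TGFBR2 and TGFBR3, and the signal carriers SMAD2, SMAD3, SMAD4 and SMAD7. They were taken from a fixed list of 10 genes, and the non-control probes that carry one of these names on the array were read, which gave 21 probes. The array held 43652 probes and 15715 named genes in all. The measurements are from 1 array for each of a pair of fractions of bovine raw milk whey, the liquid left when fat and casein have been taken from milk. Whey was centrifuged at 10000 g for 90 min, which the labels call ultracentrifugation, although small vesicles are usually pelleted at higher speeds. What sedimented, washed 2 times in buffer, gave the RNA of the exosome array, and the liquid above it gave the RNA of the supernatant array. Whether vesicles were checked in the pellet is not given in the labels. The animals were Holstein cows, and no treatment, age or genotype is given for either fraction. For each fraction RNA of 3 milk samples was mixed equally, and 100 ng was labelled with the green dye Cy3. Each array therefore measures a pool, there is no replicate, and no test was possible: each difference compares 1 array with another.

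A TGF-beta ligand is made as a precursor, is cut by furin and stays bound to its own propeptide, often tethered to a latent binding protein, until it is released. The free ligand brings together TGFBR2 and TGFBR1, which are kinases, and TGFBR1 then phosphorylates SMAD2 and SMAD3. These join SMAD4 and enter the nucleus to change transcription, and SMAD7 is an inhibitor that the pathway itself induces. TGFBR3, also called betaglycan, is a co-receptor that binds all ligands of this family of 3 and is needed most for TGFB2. In the mammary gland TGF-beta is known for restraining epithelial growth and for a part in involution, and TGFB2 is the main form of the protein in cow's milk.

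Signals below are the scanner software's processed intensities with the software's own error estimate, and they are not scaled between arrays unless stated. A probe counts as detected if the software flagged it well above background, and a gene counts as detected if at least 1 of its probes does. The lowest detected signal was 11.3 for the pellet and 9.04 for the supernatant. Signals of different probes depend on the probe's sequence as well as on the RNA, so a brighter probe does not stand for more RNA, and the comparisons are between fractions for the same probe.

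Of the 21 probes, 5 are printed. The first 3 were designed on the same TGFBR3 transcript model and differed in whether the supernatant gave a detected signal. The other 2 belong to TGFB1 and SMAD3 and had the highest supernatant signals among the 19 member probes not detected there. Capitals mark runs of 3 or more G or C, and all are written as the array files give them.
TGFBR3, position 803: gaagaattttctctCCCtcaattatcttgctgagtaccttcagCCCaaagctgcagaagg
TGFBR3, position 2083: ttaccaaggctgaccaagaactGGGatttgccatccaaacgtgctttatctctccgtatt
TGFBR3, position 2513: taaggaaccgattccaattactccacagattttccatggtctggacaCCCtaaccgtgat
TGFB1, position 1317: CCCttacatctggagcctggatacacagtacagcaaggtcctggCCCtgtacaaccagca
SMAD3, position 1448: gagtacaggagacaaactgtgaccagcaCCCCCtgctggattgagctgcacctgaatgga

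Positions are those of the probe's first base in the transcript that the array design used, and genome positions are in build HGSC Btau_3.1, per the file headers. In that build the TGFBR3 probes at 803 and 2083 lie on chromosome 3 at 55098656 to 55098715 and at 55120207 to 55120266, each in 1 block of 60 bases. The TGFBR3 probe at 2513 is placed at 55132348 to 55134711, a span of 2364 bases for a probe of 60, so the design aligned it in pieces on either side of a gap. The TGFB1 probe (chromosome 18, 50176062 to 50176825, minus strand) spans 764 bases and the SMAD3 probe (chromosome 10, 13885640 to 13888128) spans 2489. In all, 6 of the 21 probes span more genome than their length. Whether a probe lies in coding or untranslated sequence was not analysed here.

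In the exosome pellet most members were detected, and in the supernatant few were. On the exosome array 8 of the 10 members were detected, against 69.4% of all named genes, and on the supernatant array 2 of 10, against 22.9% of all named genes. The members' shares thus lie near those of the array as a whole. Those 2, TGFB2 and TGFBR3, were detected in the pellet as well. TGFB1, TGFB3, TGFBR2, SMAD2, SMAD3 and SMAD4 were detected in the pellet alone, and 47.5% of all named genes had that pattern. TGFBR1 and SMAD7 were detected on neither array, as were 29.6% of all named genes. By probe, 15 of 21 were detected in the pellet (58.5% of all probes) and 2 of 21 in the supernatant (13.1% of all probes). Before scaling, all 21 member probes were brighter on the exosome array, as were 91.6% of all probes, but for the 6 detected on neither array this compares background values.

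**Figure D1:**
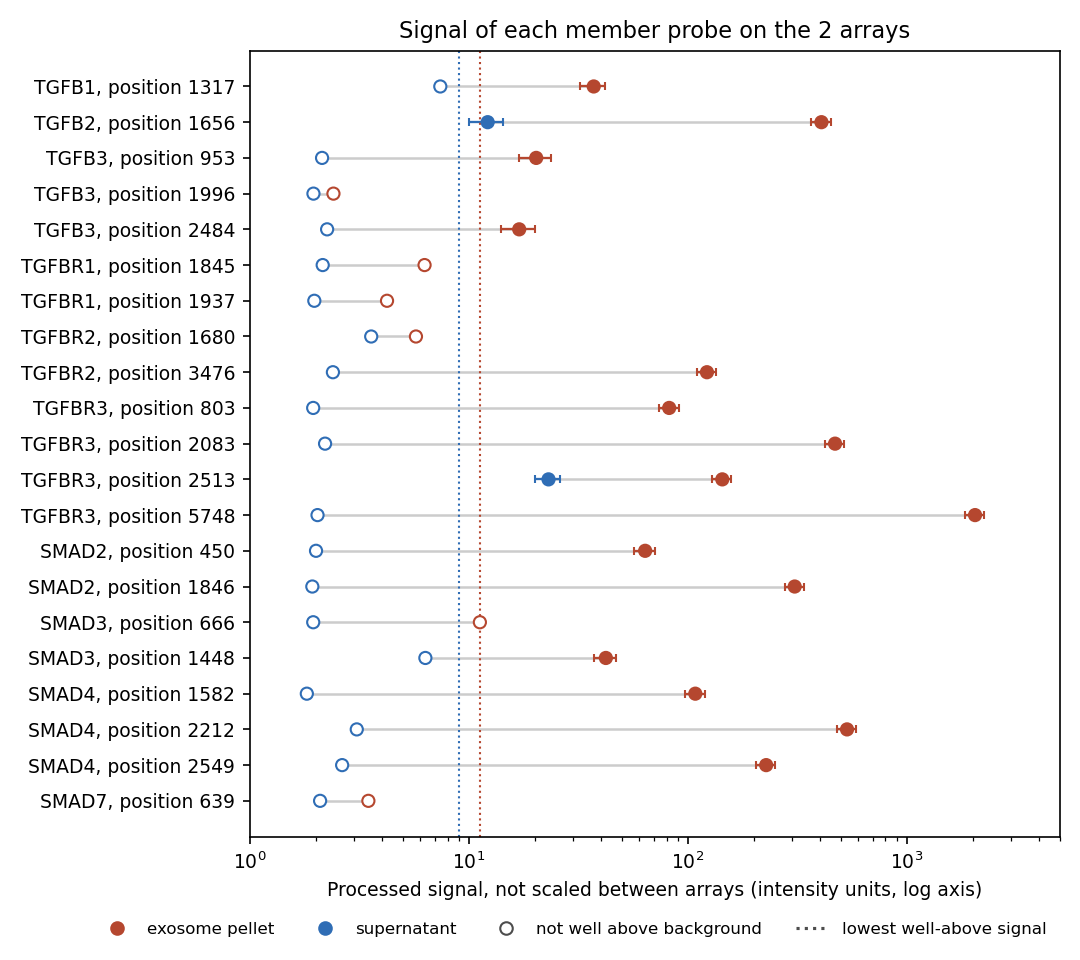
Processed signal (intensity units, log axis, not scaled between arrays) of the 21 member probes in the exosome pellet and the supernatant, 1 array each. Filled points are well above background and carry the software's error estimate, open points are not well above background, and dotted lines mark the lowest detected signals of 11.3 and 9.04. The supernatant points of TGFB2 and of TGFBR3 at position 2513 alone are filled.

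Among the ligands, TGFB2 was the one detected in both fractions. Its only probe (chromosome 16, 20930945 to 20931004) gave 407.9 ± 40.8 in the pellet and 12.2 ± 2.18 in the supernatant. The pellet was far above its lowest detected signal, while the supernatant value was close to its lowest detected signal of 9.04. The difference was 5.06 (log2, exosome minus supernatant, software error 0.30), a 33.5-fold higher pellet signal before scaling. The median gene measured on both arrays was itself 3.51 higher in the pellet (3376 genes), so TGFB2 stood 1.56 above the median gene, or 2.94-fold. With normexp background correction it stood 0.68 above, which is under 2-fold, and under a stricter filter (4 times the lowest detected signal) its supernatant signal no longer counted as detected. A value 2-fold or more above the median gene was found for 37.3% of those genes.

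TGFB1, the most widely made form and a strong regulator of immune cells, had 37.2 ± 4.83 in the pellet and 7.41 ± 2.42 in the supernatant by its only probe. The supernatant value lay under the lowest detected signal, so the pellet was at least 4.11-fold higher before scaling. TGFB3, which is prominent in the mammary gland at involution, had 3 probes. At positions 953, 1996 and 2484 they gave 20.3 ± 3.38, 2.41 and 17.0 ± 3.00 in the pellet, so the outer pair was detected and the middle one was not. In the supernatant they gave 2.14, 1.95 and 2.25, none detected. The bounds were at least 2.25-fold and 1.88-fold before scaling. Of the ligands, then, TGFB3 was near the lowest detected signal of 11.3 even in the pellet, and TGFB1 lay further above it.

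The receptors differed in whether any signal was detected at all. TGFBR1, the kinase that phosphorylates the SMADs, gave 6.28 and 4.23 in the pellet and 2.15 and 1.97 in the supernatant by its probes at 1845 and 1937. These positions lie close together, and the genome placement of the probe at 1937 covers 55 bases for a probe of 60. No probe of TGFBR1 was detected on either array, though both carried the software's weaker flag (positive and significant against background) in the pellet. With that flag all 10 members counted as detected in the pellet (84.4% of all named genes) and 7 in the supernatant (66.5% of all named genes). TGFBR2, which binds ligand first, gave 122.3 ± 12.6 in the pellet by its probe at 3476 and 2.39 in the supernatant, at least 13.5-fold before scaling. Its probe at 1680 gave 5.73 and 3.58 and was detected in neither fraction. A single probe therefore carries the detection of TGFBR2.

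TGFBR3 was the member with the most probes, and all 4 were detected in the pellet. The probes at 803, 2083 and 2513 of 1 transcript model gave 82.2 ± 8.57, 470.6 ± 47.1 and 143.8 ± 14.6 there, and a probe at 5748 of a predicted transcript (chromosome 3, 55148092 to 55148151) gave 2052 ± 205. In the supernatant the same probes gave 1.95, 2.20, 23.1 ± 3.1 and 2.04. The probe at 2513, the one that the design places across a gap in the genome, was thus the only TGFBR3 probe detected in the supernatant.

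That probe gave a difference of 2.64 (log2, software error 0.24), a 6.22-fold higher pellet signal before scaling and a value of -0.87 against the median gene. The other TGFBR3 probes, with no detected supernatant signal, gave bounds of at least 9.10-fold (803), 52.1-fold (2083) and 227-fold (5748) before scaling. On the scale of the median gene those bounds are at least -0.32, 2.19 and 4.32 (log2). The probes of TGFBR3 therefore disagreed: all 3 bounds lie above the measured value of the fourth probe. The bound of the probe at 803 lies closer to that value than the SD of 1.74 (log2) between probes of 1 gene over 533 genes. For the probes at 2083 and 5748 the gap is larger than this SD, and all 3 gaps are larger than the SD of 0.18 between repeated spots of 10 probes. The single detected probe sets the gene's value of -0.87. With no filter on dim probes, where all 4 enter, TGFBR3 stood at 3.52 above the median gene.

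The receptor-activated SMADs were detected in the pellet alone. SMAD2 gave 63.9 ± 6.90 and 307.8 ± 30.9 in the pellet by its probes at 450 and 1846, and 2.0 and 1.93 in the supernatant. Both probes were detected in the pellet, with bounds of at least 7.07-fold and 34.1-fold before scaling. The probe at 450 lies on chromosome 24 (49383715 to 49383774, minus strand) and the other on an unplaced piece of the build. SMAD3, which shares most targets with SMAD2, gave 42.2 ± 4.87 in the pellet by the probe at 1448, against 6.33 ± 2.06 in the supernatant, at least 4.67-fold. Its probe at 666 gave 11.23 ± 2.65 in the pellet, just under the lowest detected signal of 11.27, and 1.95 in the supernatant.

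SMAD4, the common partner of SMAD2 and SMAD3, was detected by all 3 of its probes in the pellet. They gave 108.2 ± 11.1, 533.8 ± 53.4 and 228.1 ± 23.0 at positions 1582, 2212 and 2549, against 1.82, 3.08 and 2.64 in the supernatant. The bounds were at least 12.0-fold, 59.1-fold and 25.2-fold before scaling. The 3 probes lie on chromosome 24 between 52313174 and 52314200, with the same distances in the genome as in the transcript (630 and 337 bases), so they lie in 1 unbroken stretch. SMAD7, the inhibitor that blocks the receptors and is itself a target of the pathway, had 1 probe, across 5114 bases of chromosome 24. It gave 3.48 ± 2.81 in the pellet and 2.09 in the supernatant and was detected in neither.

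Over the 13 member probes detected in the pellet alone the bound had a median of 3.58 (log2, before scaling), from 0.91 to 7.83. Over all 20220 probes detected in the pellet alone the median was 3.92. Of the 13, 7 had a bound above the median gene, against 56% of those 20220, and 5 had a bound at least 2-fold above it, against 42.1%. The bounds follow the pellet signal, since the dim side is a constant near 9.04, and they are no measure of how little RNA the supernatant held.

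The direction of these differences rests on the scaling. When each array was scaled to the 75th percentile of the probes detected on both, every difference moved by 5.46 (log2). TGFB2 then stood at -0.39 and TGFBR3 at -2.82, that is, on the supernatant side. With scaling to the array medians they stood at 1.57 and -0.85, and with scaling to the median of 8 spike-in probes, which report RNA added in known amounts, at 2.79 and 0.36. After the 75th percentile scaling 3 of the 13 pellet-only probes kept a bound above 1-fold, against 30.2% of all 20220 pellet-only probes. They were TGFBR3 at 5748 (at least 5.17-fold), SMAD4 at 2212 (1.35-fold) and TGFBR3 at 2083 (1.19-fold). A constant scaling cannot change the order of TGFB2 and TGFBR3 at 2513, so that order carries no information on the scaling. It also depends on the probe. Before scaling, the bounds of TGFBR3 at 2083 and 5748 (at least 5.70 and 7.83, log2) lay above the 5.06 of TGFB2. The bound at 803 (at least 3.19) lay below it.

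Probes of 1 member did not always share a call in the pellet. The undetected probe was the earlier of the pair for TGFBR2 (position 1680) and SMAD3 (position 666), and the middle of 3 for TGFB3 (position 1996). All probes were detected for SMAD2, SMAD4 and TGFBR3, and none for TGFBR1. In the pellet the last probe of a transcript was brighter than the first for 5 of 6 member transcripts. Over the array this held for 77.6% of 7771 transcripts, so the members lie near that share. The part of probe position in these calls was not tested.

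Detection in the supernatant differed with base composition over the array, though not as a steady rise. From 35% to under 40% GC, 8.34% of probes were detected there. From 40% to under 45% it was 12.8%, and from 45% to under 50% it was 11.8%. From 50% to under 55% it was 26.2%, and at 55% or more it was 22.1%. On the exosome array the shares were 62.3%, 58.3%, 53.4%, 60.9% and 60.4%, in that order. Member probes held 35% to 55% GC, with 40% for TGFB2 and 45% for all 4 TGFBR3 probes. Of the 4 TGFBR3 probes, 1 was detected in the supernatant. The 4 member probes at 55% gave 7.41 (TGFB1), 6.33 and 1.95 (SMAD3) and 3.58 (TGFBR2) in the supernatant, none detected. The 19 member probes undetected in the supernatant ranged from 1.82 to 7.41 there. The part of GC content in these values was not tested.

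Other genes of the pathway came from a list of 81, of which 76 were named on the array. Of these, 50 were detected in the pellet (65.8%) and 22 in the supernatant (28.9%), against 69.4% and 22.9% of all named genes. For 20 of them at least 1 probe was detected in both fractions, and these had a median of -0.76 (log2) against the median gene, where all 3376 genes have 0 by definition. Among them 3 exceeded the median gene by 2-fold or more (37.3% of all measured genes did) and 9 fell short of it by as much (36.6% did).

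**Figure D2:**
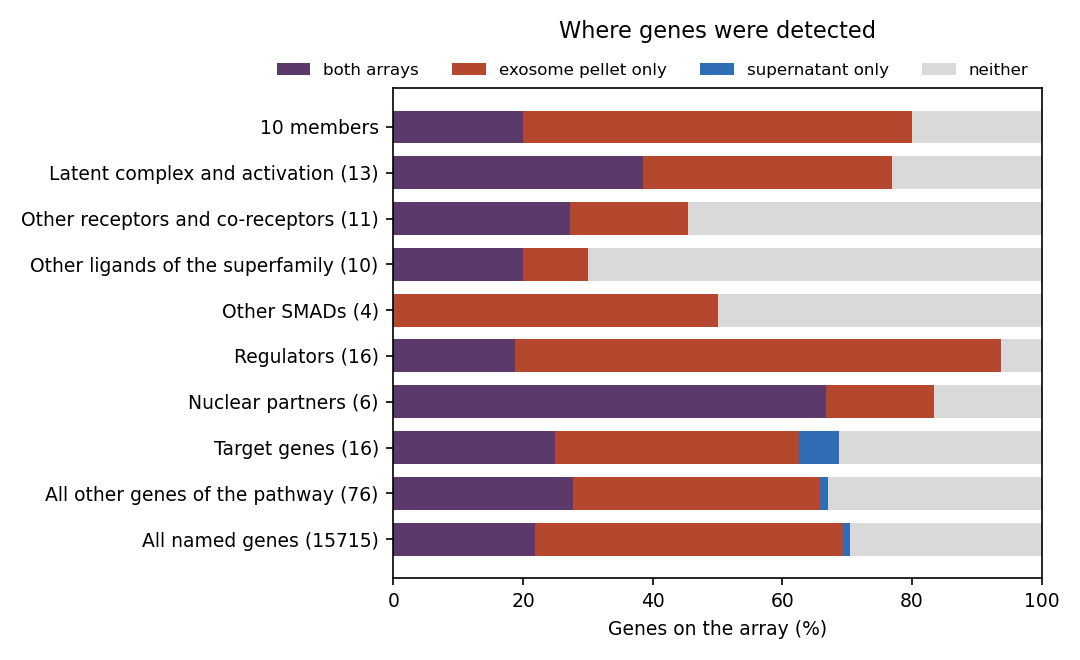
Share of genes on the array (%) detected on both arrays, in the exosome pellet only, in the supernatant only or on neither, for the 10 members, each group of other pathway genes (number on the array in brackets) and all 15715 named genes. The members' bar holds 2 genes on both arrays, 6 in the pellet only and 2 on neither.

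Of 13 genes that hold or release latent ligand, 10 were detected in the pellet and 5 in the supernatant, against 69.4% and 22.9% of all named genes. FURIN, the protease that cuts the precursor, was detected in the pellet alone, at least 63.2-fold higher before scaling by 1 of its 2 probes. DCN (decorin, a matrix proteoglycan that binds TGF-beta) was measured by 2 of its 9 probes, which gave -0.53 and -3.59 against the median gene. At the second of these its signals were 918.7 in the pellet and 975.4 in the supernatant. THBS1 (thrombospondin, an activator of latent ligand) stood at -1.35, LTBP3 (a latent binding protein) at -1.88 and MMP9 (a matrix protease) at -0.71. These values rest on 2 of 6, 1 of 3 and 1 of 3 probes, in that order. LTBP2 was detected by a different probe in each fraction, so it has no difference.

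Among other receptors, 5 of 11 were detected in the pellet and 3 in the supernatant, against 69.4% and 22.9% of all named genes. BMPR1B, a receptor for bone morphogenetic proteins, stood 1.90 above the median gene (1279 and 30.2). That value rests on 1 of its 4 probes, and the others were detected in neither fraction. ENG (endoglin) and ACVRL1, which are TGF-beta family receptors best known in endothelium, stood at -0.81 and -1.20, by 2 of 4 and 1 of 3 probes. The endothelial markers PECAM1, VWF, CDH5 and KDR were all undetected in the pellet and 1 of the 4 was detected in the supernatant. Their summed signal was 58.7 in the pellet and 47.5 in the supernatant.

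Of 10 other ligands of the superfamily, 3 were detected in the pellet and 2 in the supernatant, against 69.4% and 22.9% of all named genes. INHBA and INHA encode inhibin and activin subunits. INHBA gave 30.1 ± 4.34 in the pellet and 143.3 ± 14.6 in the supernatant by the probe measured on both, -5.76 against the median gene. INHA gave 96.9 ± 10.2 and 116.5 ± 11.9, which is -3.77 against it. Both were thus brighter in the supernatant before any scaling, as were 6.61% of all measured genes. INHBA had a second probe at 280.3 in the pellet that was not detected in the supernatant, so its probes disagreed. Of the 4 other SMADs, SMAD1 (mean bound of its 2 probes at least 25.3-fold before scaling) and SMAD5 (at least 11.9-fold by 1 of 2 probes), which carry bone morphogenetic protein signals, were detected in the pellet alone, and SMAD6 and SMAD9 on neither array.

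Of 16 regulators of the receptors and SMADs, 15 were detected in the pellet and 3 in the supernatant, against 69.4% and 22.9% of all named genes. PPM1A, a phosphatase that acts on SMAD2 and SMAD3, stood 3.95 above the median gene (4187 and 23.8). All 3 of its probes were detected in the pellet and 1 in the supernatant, which sets that value. TRIM33, a ubiquitin ligase that binds SMADs, stood at 0.22, also by 1 of 3 probes. PMEPA1, a TGF-beta target that keeps SMAD2 and SMAD3 from the receptor, was measured by both of its probes, at 0.15 and -5.03. Its signals were 9757 and 229.6 in the pellet and 773.4 and 660.5 in the supernatant, so the probes disagreed in the pellet far more than in the supernatant. FKBP1A, which holds TGFBR1 inactive, was detected in the pellet alone by 3 of 3 probes, with a mean bound of at least 173-fold before scaling.

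Of 6 nuclear partners, 5 were detected in the pellet and 4 in the supernatant, against 69.4% and 22.9% of all named genes. RUNX3 stood at -0.34, FOXH1 at -0.63, JUN at 0.01 and CREBBP at -1.66 against the median gene. RUNX3 and FOXH1 have 1 probe each, and the values of JUN and CREBBP rest on 1 of 3 and 1 of 4 probes. All are transcription factors or, for CREBBP, a coactivator that SMAD complexes can use. The FOXH1 and RUNX3 probes hold 63.3% and 66.7% GC.

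Of 16 target genes, 10 were detected in the pellet and 5 in the supernatant, against 69.4% and 22.9% of all named genes. COL1A1 (collagen) stood at 0.75, with 2 of its 5 probes measured, at -0.38 and 1.88. ID2 (an inhibitor of helix-loop-helix factors) stood at 1.14, CDKN1A (a cell cycle inhibitor) at 0.25 and SNAI1 (a repressor of epithelial genes) at -1.96. These last values rest on 1 of 3, 1 of 2 and 1 of 2 probes, in that order.

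**Figure D3:**
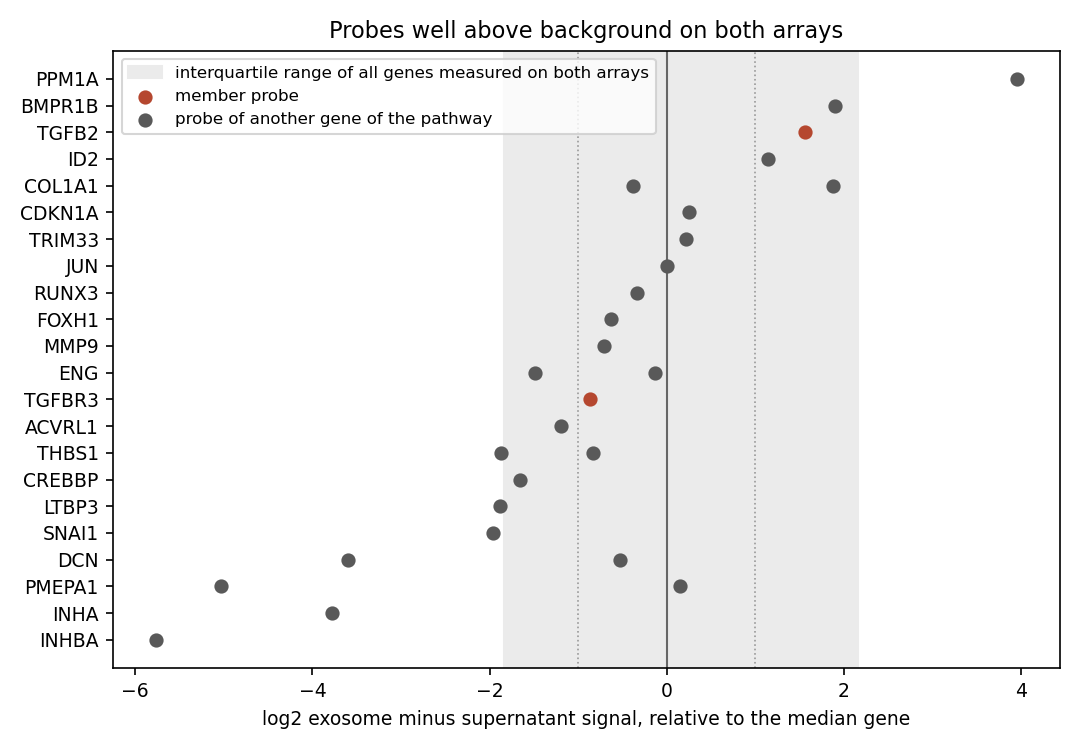
Difference between exosome and supernatant signal (log2) relative to the median gene, for each probe of a member or other pathway gene well above background on both arrays. The grey band is the interquartile range of all 3376 genes measured on both, from -1.84 to 2.16. Dotted lines mark 2-fold from the median gene. TGFB2 (1.56) and TGFBR3 (-0.87) lie inside the band. INHBA (-5.76), INHA (-3.77) and a probe each of PMEPA1 (-5.03) and DCN (-3.59) lie far to its left, and PPM1A (3.95) far to its right.

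Marker counts stand beside the shares of all named genes detected, 69.4% in the pellet and 22.9% in the supernatant. Sums of different lists come from different probes and do not compare amounts of RNA. Of 8 markers of mammary luminal epithelium, 8 were detected in the pellet and 5 in the supernatant, with a summed signal of 1859850 and 2745. Of 8 leukocyte markers 5 and 4 were detected, with sums of 2369 and 908, and ITGAM, CSF3R and CD3E were not detected in the pellet. Of 6 fibroblast markers 4 and 3 were detected, with sums of 15325 and 1448, and LUM and PDGFRA were not detected in the pellet. COL1A1 and DCN are on that list and on the pathway list. Of 6 myoepithelial markers 4 and 3 were detected, with sums of 687 and 354, and KRT5 and TP63 were not detected in the pellet. Of 3 platelet markers 1 and 0 were detected, with sums of 31.0 and 10.8, and PF4 and PPBP were not detected in the pellet. The part of any cell type in the members' signals was not tested. The arrays measured pooled RNA of whey fractions. The number of cells of a type therefore cannot be told apart from how much RNA each gave to the whey.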

How the data were processed

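RNA of 2 whey fractions was measured on 1-colour Agilent bovine arrays, 1 array per fraction. The authors deposited intensity values that are Agilent Feature Extraction 10.7.3.1 processed signals, background-subtracted and detrended per the file headers, with no step that scales 1 array to the other. The authors' deposited log2 table equals the log2 of these signals for the 21 member probes within 6.4e-07, with column medians of 4.81 and 1.32, so it is neither scaled nor centred. Any further step is not given in the sources used here.

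Outlier spots (5 and 2, none of a member) and controls were left out, spots of 1 probe were averaged, and no spot was saturated. Gene names are those of the array files, and a name equal to its accession or of the form LOC and a number counted as unnamed. Differences per gene average the probes detected in both fractions. Where 1 fraction was not detected, its signal was replaced by the lowest detected signal of that array if that was higher, and the ratio is given as "at least". The main scaling used the 75th percentile of probes detected on both arrays, since 13.1% of probes were detected on the supernatant array. Most values are unscaled or relative to the median gene, which no constant scaling moves. No test was run, and having 1 array per fraction limits the precision.

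The software's flags, an offset of 50 for normexp, 4 times the lowest detected signal for the stricter filter and a size call of 2-fold were used. Python 3.11.15, pandas 2.3.3 and limma 3.58.1 were used, and the calculation of gene differences was tested on simulated data. The simulation used probes detected on both arrays and gave all probes of a gene the same difference. It did not cover detection calls, bounds or probes of a gene that disagree. From other pathway genes, the text names every gene detected in the supernatant, except 1 that is not reported here, and up to 2 with the brightest pellet signal in each group. Genes of nearest signal, also planned, are left out because a like supernatant signal under background has no order. The members, lists and alternatives were chosen with earlier results of these data known. A planned match of probes to RefSeq proteins was not run, and transcript positions from the array files were used instead.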

Additional observations from a re-analysis of the deposited data

How the results depend on the processing

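The values are single-array values with no replicate, and the limits are the detection rule, the scaling and the probe chosen. The member count in the pellet was 8, and became 10 with the weaker flag, 5 with the stricter filter and 5 under the demand that every probe be detected. In the supernatant the count of 2 became 7, 0 and 1 under the same rules. With the weaker flag 84.4% and 66.5% of all named genes counted as detected. Symbols updated through RefSeq and kept outlier spots gave 8 and 2 again. The median of the 2 measured members, 0.34 (log2) against the median gene, was -0.67 from 7 members with the weaker flag, -0.0082 from all 10 with no filter and -0.10 with normexp correction. The stricter filter left no member. The median of the other pathway genes, -0.76, was -0.98, -1.06 and -1.22 with the weaker flag, the stricter filter and no filter, and -0.55 with the brightest probe per gene. The scaled median of the members, -1.60, turned to 0.36 with array medians, 3.85 with no scaling and 1.58 with spike-ins, since these subtract a smaller constant. It was -2.22 with quantile normalization and -2.39 with normexp correction. TGFB2 against the median gene was 0.68 with normexp correction, under the 2-fold call, and 2.15 with no filter. Its 1 probe has the same difference of 5.06 with no filter. There the median gene was 2.91 over 15715 genes, against 3.51 over 3376. TGFBR3 was -0.57 with quantile normalization and 3.52 with no filter, where its other 3 probes enter. The cause of the other changes was not tested. The deposited log2 table gave the same values relative to the median gene for TGFB2, TGFBR3 and both medians.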
